A study of Mus musculus with 83 samples.

Results

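The genes of the mitochondrial ribosomal proteins were followed in the colon of male mice from young adulthood to old age. They were chosen by name, as the protein-coding rows of the count table whose symbol starts with Mrpl or Mrps and a number, which gave 77 of 37764 genes, 48 Mrpl and 29 Mrps. Between 24 and 15 months 26 of the 77 members (33.8%) were lower at the older age, against 7.24% of the 18325 genes tested, and none was higher. With marker scores of epithelium, cycling cells, macrophages and endothelium in the model, 1 member was lower at this step, against 3.11% of the genes tested. Between 28 and 3 months 50 (64.9%) were lower, against 25.9% of the genes tested, and 1 was higher, against 23.5%. With the same scores 26 were lower, against 25.5%, and 8 higher, against 20.3%. Up to 15 months little was called: between 9 and 3 months 1 member was lower, against 5.05% of genes, and between 15 and 9 months none differed, against 0.431%.

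RNA was taken from the proximal colon of 83 male C57BL/6J/Ukj mice that were kept only for aging, with no treatment or genetic change in any group: 16 mice each of 3, 9 and 15 months, 17 of 24 months and 18 of 28 months. Each library is 1 mouse, and the libraries were made in 3 batches, each of which held mice of every age. Counted read pairs came to between 23026370 and 75838290 in each mouse (median 35495123). All 8 epithelial markers were detected, with a summed level between 11600 and 14500 counts per 1000000 counted pairs (CPM) at 3 months and between 11200 and 14000 at 28 months, and all 8 smooth muscle markers were detected as well.

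Mitochondria carry their own ribosome, which makes a small set of respiratory chain and ATP synthase subunits from messengers of the mitochondrial genome. Its RNA comes from the mitochondrial genome, while all of its proteins are encoded in the nucleus, made in the cytosol and imported. Mrpl genes mostly encode proteins of the large subunit and Mrps genes mostly those of the small subunit. Many have a counterpart in the bacterial ribosome, and the others are particular to mitochondria. The colon epithelium renews fast, and its absorptive cells use fatty acids of bacterial origin as mitochondrial fuel.

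By class, 30 members encode large subunit proteins with a bacterial counterpart and 20 encode large subunit proteins particular to mitochondria. The latter include Mrps30 and Mrps18a, which sit in the large subunit in spite of their symbols, and Mrpl58, a former release factor homolog. Another 16 encode small subunit proteins with a bacterial counterpart and 10 small subunit proteins particular to mitochondria. Mrps36 carries the symbol but is known as a subunit of the 2-oxoglutarate dehydrogenase complex.

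The members lie on 17 chromosomes, with 11 on chromosome 11 and 8 on chromosome 17. For 33 of the 77 (42.9%), the start of another protein-coding gene on the opposite strand lay within 1000 bp of their own, against 12.2% of the 19326 protein-coding genes in the table. Mrpl46 and Mrps11 are such a pair, with 412 bp between their starts. RefSeq promoter windows of 300 bases, from 250 before to 50 after a gene's start (GRCm38.p6), were at hand for 68 of the 77 members. Letters that match short motifs of known factors were searched on both strands. The ETS family motif CCGGAAG stood in 25 of the 68 windows (36.8%), in 9.93% of the windows of all 27025 genes and in 17.5% of those of the 11869 tested protein-coding genes. The YY1 motif AANATGGC stood in 30.9% of the members' windows, in 6.96% of all and in 8.89% of the tested genes' windows. The NRF1 motif GCGCANGCG stood in 23.5%, 7.03% and 13.4%, respectively. The SP1 motif GGGCGG stood in 34 of the members' windows, in 38.2% of all windows and in 64.8% of those of tested genes. The NF-Y letters CCAAT stood in 38.2%, the E-box CACGTG in 7.35%, the TATA box TATAAA in 7.35% and TACANNTCC, a part of the ZNF143 site that was added after a member's window had been read, in 7.35% of the members' windows, against 41.1%, 8.09%, 15.7% and 5.14% of all. The median GC content was 58.0% in the members' windows and 60.0% in those of the tested genes.

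Among the 44 windows of members that were lower at 28 than at 3 months, 15 held the ETS, 9 the NRF1 and 15 the YY1 letters, and among the 24 windows of the other members 10, 7 and 6 did. These counts describe letters only.

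Windows are shown for members on which the results turn: Mrps6 and Mrpl34, which had the largest falls between 3 and 28 months, Mrps7, which fell both between 15 and 24 and between 3 and 28 months, Mrpl12, which had the highest level, and Mrps9, the only member that was higher at 28 than at 3 months. Capitals mark matches to the ETS, NRF1, YY1, SP1 and ZNF143 letters given above on either strand, and neighbouring matches run together. All 5 lie on the plus strand, Mrps6 at chr16:92058086-92058385, Mrpl34 at chr8:71464676-71464975, Mrps7 at chr11:115603890-115604189, Mrpl12 at chr11:120484387-120484686 and Mrps9 at chr1:42850983-42851282.
Mrps6: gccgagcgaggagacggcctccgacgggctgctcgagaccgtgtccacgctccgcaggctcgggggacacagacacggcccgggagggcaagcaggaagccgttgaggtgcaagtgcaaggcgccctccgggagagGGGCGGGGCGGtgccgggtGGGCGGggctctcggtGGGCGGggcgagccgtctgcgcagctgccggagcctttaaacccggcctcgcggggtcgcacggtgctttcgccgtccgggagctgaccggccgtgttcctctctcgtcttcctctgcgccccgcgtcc
Mrpl34: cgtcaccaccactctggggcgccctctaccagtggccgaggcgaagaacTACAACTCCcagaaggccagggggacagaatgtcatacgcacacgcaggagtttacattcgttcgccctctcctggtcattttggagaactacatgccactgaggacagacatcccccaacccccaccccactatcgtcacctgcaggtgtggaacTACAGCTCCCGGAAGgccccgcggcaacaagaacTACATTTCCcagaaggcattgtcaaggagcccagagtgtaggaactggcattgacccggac
Mrps7: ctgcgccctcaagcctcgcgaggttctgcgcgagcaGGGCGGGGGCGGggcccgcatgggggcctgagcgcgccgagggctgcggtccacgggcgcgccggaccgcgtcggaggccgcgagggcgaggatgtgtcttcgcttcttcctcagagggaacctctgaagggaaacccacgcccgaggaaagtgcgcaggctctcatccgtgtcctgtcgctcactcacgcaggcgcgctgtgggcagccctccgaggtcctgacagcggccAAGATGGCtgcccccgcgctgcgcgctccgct
Mrpl12: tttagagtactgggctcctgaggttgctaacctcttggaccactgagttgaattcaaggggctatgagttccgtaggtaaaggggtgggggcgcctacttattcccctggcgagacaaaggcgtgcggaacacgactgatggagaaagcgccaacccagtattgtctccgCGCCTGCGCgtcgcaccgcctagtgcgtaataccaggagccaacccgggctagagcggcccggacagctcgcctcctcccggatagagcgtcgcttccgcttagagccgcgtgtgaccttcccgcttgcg
Mrps9: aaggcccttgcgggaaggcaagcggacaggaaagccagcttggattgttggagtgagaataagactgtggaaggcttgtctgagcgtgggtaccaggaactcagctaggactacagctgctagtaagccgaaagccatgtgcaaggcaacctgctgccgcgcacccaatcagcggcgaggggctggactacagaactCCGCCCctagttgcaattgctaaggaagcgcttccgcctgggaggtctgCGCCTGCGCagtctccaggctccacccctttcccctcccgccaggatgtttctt

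The window of Mrps6 held 4 SP1 matches and none of the other 4 motifs. That of Mrpl34 held 3 ZNF143 matches, and 1 of them ran into an ETS match. Mrps7 held a YY1 match just after its start and 2 SP1 matches. Mrpl12 held 1 NRF1 match, and Mrps9 held 1 NRF1 and 1 SP1 match.

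All 77 members passed the filter on low counts, which kept 18325 genes, and the lowest count of any member in any mouse was 233. Levels between genes were compared as TPM, which divides counts by exon length and scales each mouse to a sum of 1000000. The mean TPM over the 83 mice ranged from 8.70 to 252 with a median of 41.1, against a median of 10.8 over all tested genes. Mrpl12 was the highest at 252 ± 22.8 TPM (SD, n = 83). It encodes the protein of the flexible stalk that recruits translation factors. Mrpl34, which encodes a small protein packed into the ribosomal RNA, came next at 151 ± 19.4 TPM. Mrps21 followed at 147 ± 15.5 TPM, and the values of the latter pair overlapped within their spread. Mrpl48, at 8.70 ± 0.671 TPM, Mrpl13, at 9.19 ± 0.734 TPM, and Mrpl33, at 9.88 ± 0.867 TPM, were the lowest. Their annotated exons together are long (8152, 7936 and 7326 bp), which lowers a TPM where only short isoforms are made.

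The mean log2 CPM over the 77 members was 5.02 ± 0.101 (SD, n = 16) at 3 months, 5.01 ± 0.111 (n = 16) at 9 months, 5.02 ± 0.077 (n = 16) at 15 months, 4.94 ± 0.072 (n = 17) at 24 months and 4.89 ± 0.074 (n = 18) at 28 months. The ages overlapped, since the mice of 3 months spanned 4.88 to 5.20 and those of 28 months 4.76 to 4.98. The summed TPM of the members was 4141 ± 195 in the mice of 3 months, 4026 ± 252 in those of 9, 4021 ± 200 in those of 15, 3898 ± 180 in those of 24 and 3827 ± 179 in those of 28 months. On this scale, which the most abundant members weigh on, the mean at 9 and 15 months was already below that at 3 months, and a difference between these sums was not tested. One mouse stood apart: mouse 10 of the 9-month group had a mean of 5.37, above all other mice. It also had the steepest length trend of the 83 mice, that is, a slope of -0.0954 of log2 CPM deviation on log2 exon length, so that short transcripts were relatively high. By age, this slope averaged 0.00802 at 3 months, -0.0047 at 9, -0.00833 at 15, -0.0028 at 24 and 0.0071 at 28 months, with SDs between 0.0208 and 0.0351. From 15 to 28 months it thus rose on average while the members' mean fell, whereas at 3 months both were high.

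**Figure D1:**
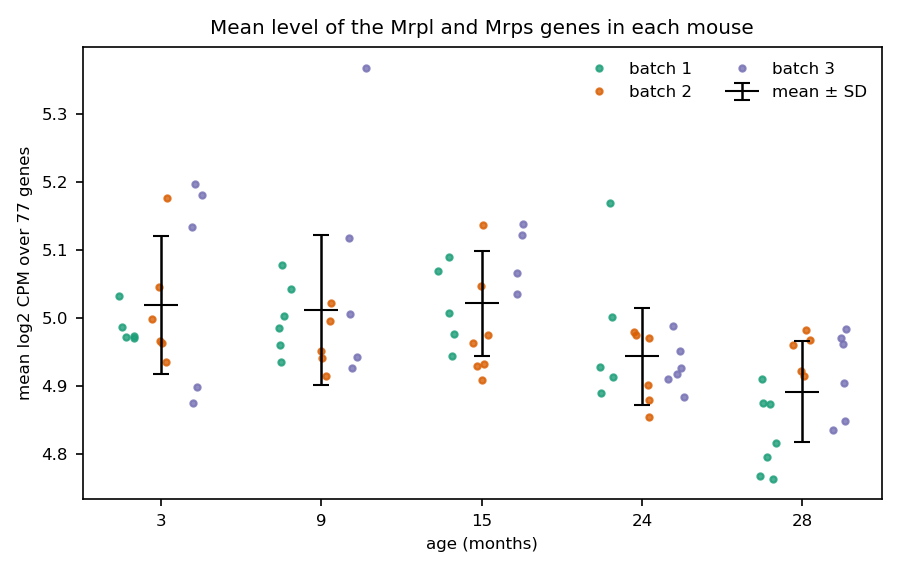
Mean log2 CPM over the 77 Mrpl and Mrps genes (vertical axis) in each of the 83 mice by age in months (horizontal axis), with points colored by library batch and bars for the mean ± SD of each age. The 9-month mouse at 5.37 stands apart, and the 28-month mice end at 4.98.

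In a bulk sample, fewer cells that express these genes and less of their RNA per cell cannot be told apart. Members also moved together from mouse to mouse. After age and batch had been removed, the log2 CPM of a member correlated with the mean of the other members at a median Pearson's r of 0.711 over 83 mice, from 0.319 for Mrps31 and 0.326 for Mrps9 to 0.926 for Mrpl12. The other 18248 tested genes had a median r of -0.0287 with the mean of the members. The mean of the members also followed the length trend. After age and batch had been removed from both, it correlated with the slope on exon length at r = -0.698 (Spearman's rho -0.67) over 83 mice, at -0.655 without the 2 mice farthest from the median slope, and at -0.66, -0.688 and -0.728 within batches 1, 2 and 3. Members were thus higher in libraries in which short transcripts were relatively high. These are descriptions, since all of these values share the depth, scaling and cell makeup of a library.

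Each pair of ages was compared with edgeR's quasi-likelihood F-test with age and batch in the model, and a gene was called at a Benjamini-Hochberg adjusted p below 0.1 over the 18325 genes tested. Fold changes are the older minus the younger age on the log2 scale. Between 9 and 3 months the 1 member that was lower was Mrps31, a small subunit protein particular to mitochondria, whose CPM at 3 months ran from 34.9 over a median of 39.2 to 55.2 and at 9 months from 34.5 over 36.9 to 44.0. It fell by 0.14 on the log2 scale (SE 0.05, adjusted p = 0.0518), and the ranges overlapped. The median fold change of the members was -0.01, as was that of all tested genes. An adjusted p below 0.05 was reached by none. Between 15 and 9 months no member was called. At an unadjusted p below 0.05, 1 member passed, Mrpl48 (log2 fold change -0.08, SE 0.04), and DESeq2 called none either.

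Between 24 and 15 months the 26 members that were lower came from all classes. At the same step 4 of 6 macrophage and 4 of 5 endothelial markers were higher, and with the 4 marker scores in the model the count of members fell to 1 and their median fold change was -0.01. The fold change was negative for 74 of the 77, with a median of -0.09 (5.94% lower), and the median over all tested genes was 0.00. Of the members called, 25 were lower within all 3 library batches. Within batches the members' median difference was -0.04, -0.06 and -0.15 in batches 1, 2 and 3, and 56, 63 and 77 members were lower. The size thus differed between batches, and a difference between batches was not tested. With batches 1 and 3 alone 0 members were called, with 1 and 2 alone 3 and with 2 and 3 alone 13. Fewer mice entered each of these fits, and their counts are not set against the share of all tested genes.

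Among the members called and lower in all 3 batches, the largest falls at this step were in Mrpl47, Mrpl34, Mrps7, Mrps22 and Mrpl55. Mrps6 had a difference of similar size (-0.16, SE 0.07) but was not called (adjusted p = 0.128). Mrpl47, whose bacterial counterpart lies at the exit of the peptide tunnel, ran from 17.4 over a median of 18.9 to 24.3 CPM at 15 months and from 14.3 over 17.5 to 19.2 CPM at 24 months. In 16 of 17 mice of 24 months it was under the median of the 15-month mice. It fell by 0.20 on the log2 scale (SE 0.05, adjusted p = 0.00752). Mrpl34 ran from 27.3 over 32.7 to 40.9 CPM at 15 months and from 22.1 over 29.0 to 39.2 CPM at 24 months, and it fell by 0.19 (SE 0.06, adjusted p = 0.0383). Mrps7, a protein of the head of the small subunit, ran from 38.2 over 44.0 to 50.6 CPM at 15 months and from 35.6 over 39.0 to 45.9 CPM at 24 months. It fell by 0.16 (SE 0.05, adjusted p = 0.0157). Mrps22, in which human mutations cause a combined respiratory chain deficiency, ran from 16.0 over 18.2 to 22.6 CPM at 15 months and from 14 over 16.6 to 19.6 CPM at 24 months, with a fall of 0.16 (SE 0.05, adjusted p = 0.0415). The ranges of both ages overlapped for all of these genes. Mrpl55 ran from 19.0 to 23.6 CPM at 15 months and from 16.5 to 23.7 CPM at 24 months, and 12 of the 17 older mice were below the lowest of the younger ones.

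Between 28 and 24 months 8 of the 77 members were lower, against 6.01% of all tested genes. They were Mrpl10, Mrpl15, Mrpl21, Mrpl24, Mrpl37, Mrpl38, Mrpl42 and Mrps25. The median fold change was -0.04, and that of all tested genes was -0.01. Of the 8 members called, 7 were lower within all 3 batches. Over all members the batches were less alike, and a difference between them was not tested. In batch 1 75 of the 77 members were lower, with a median of -0.15, while in batch 2 31 and in batch 3 45 were lower, with medians of 0.02 and -0.01. With batches 2 and 3 alone, a fit on fewer mice, 0 members were called, and the share of all tested genes in that fit is not given. With the 4 marker scores in the model 23 members were called, the most over 15 alternatives. In that fit 8.67% of all tested genes were lower and 8.32% higher. Markers of B and plasma cells (4 of 6), cycling cells (3 of 6) and fibroblasts (2 of 6) were also lower at this step. The 24-month mouse with the highest mean over the members (5.17) was in batch 1. Mrpl21 had the largest difference. It ran from 22.5 over a median of 26.5 to 29.5 CPM at 24 months and from 18.9 over 23.6 to 26.9 CPM at 28 months, and it fell by 0.19 (SE 0.05, adjusted p = 0.0052), by 0.31, 0.12 and 0.13 in batches 1, 2 and 3.

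Between 28 and 3 months the fold change was negative for 73 of the 77, with a median of -0.14 (9.33% lower), against a median of -0.01 over all tested genes. All 51 called members kept their direction within the 3 batches, where the median differences were -0.15, -0.07 and -0.14. Of the 50 that were lower, 25 were also lower between 24 and 15 months and 8 between 28 and 24 months. Mice of 28 or 24 months are common to the comparison of 28 with 24 months and each of the others. Those of 28 with 3 and of 24 with 15 months have no mice in common.

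**Figure D2:**
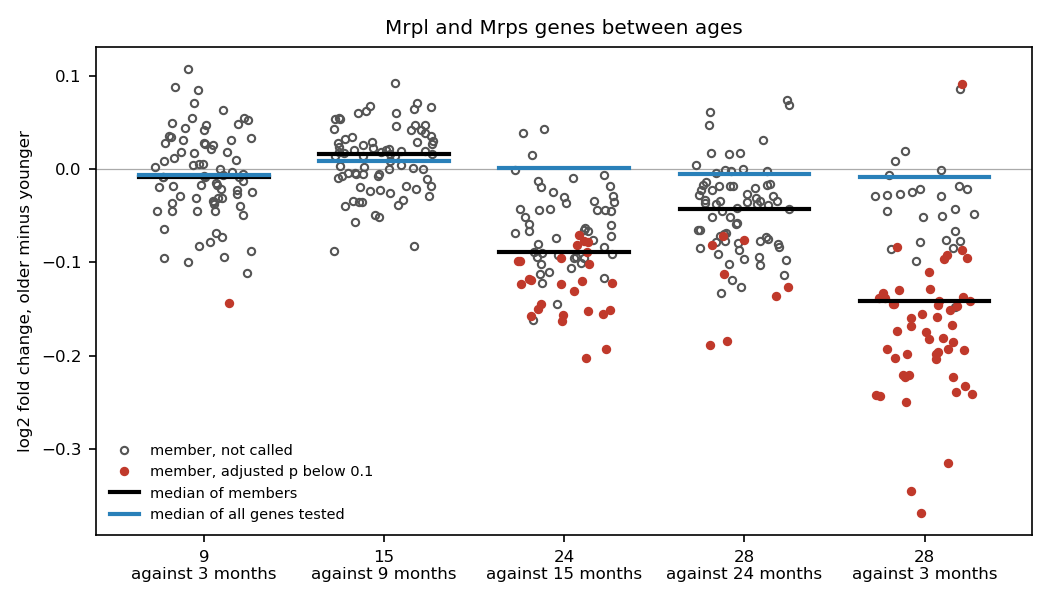
Log2 fold change of each of the 77 members (vertical axis) in 5 comparisons of ages (horizontal axis). Filled red points passed an adjusted p of 0.1, and lines mark the medians of the members (black) and of all genes tested (blue). The members' median lies at that of all genes up to 15 months and below it at the later comparisons.

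The largest fall was that of Mrps6, a protein of the small subunit's platform. It ran from 20.1 over a median of 24.5 to 37.6 CPM in the mice of 3 months, from 18.8 over 23.3 to 29.4 CPM in those of 15 months, from 17.7 over 21.0 to 25.4 CPM in those of 24 months and from 14.6 over 20 to 26.7 CPM in those of 28 months. In 17 of 18 mice of 28 months it was under the 3-month median, and 9 were below all 3-month mice. It fell by 0.37 on the log2 scale (SE 0.07, adjusted p = 7.69e-06), which is 22.5% lower.

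Mrpl34 ran from 26.8 over a median of 32.7 to 42.3 CPM at 3 months and from 21.7 over 26.2 to 32.5 CPM at 28 months. All 18 older mice were under the younger median. It fell by 0.34 (SE 0.06, adjusted p = 3.23e-06). Mrpl38, a large subunit protein particular to mitochondria, ran from 35.4 over 41.6 to 53.6 CPM at 3 months and from 25 over 34.6 to 38.4 CPM at 28 months, with a fall of 0.31 (SE 0.05, adjusted p = 2.5e-06). Its medians at 9, 15 and 24 months were 39.9, 41.1 and 38.1 CPM, and the 28-month median was the lowest of the 5. Mrps7 ran from 37.1 over 44.5 to 54.8 CPM at 3 months and from 31.9 over 38.6 to 41.8 CPM at 28 months, with a fall of 0.25 (SE 0.04, adjusted p = 3.95e-06). Mrps25, a small subunit protein particular to mitochondria, came closest to a gap between the ages. It ran from 24.6 over 26.3 to 30.5 CPM at 3 months and from 20.2 over 22.9 to 25.8 CPM at 28 months, and 15 of 18 older mice were below all younger ones. Its fall was 0.24 (SE 0.04, adjusted p = 4.13e-06).

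**Figure D3:**
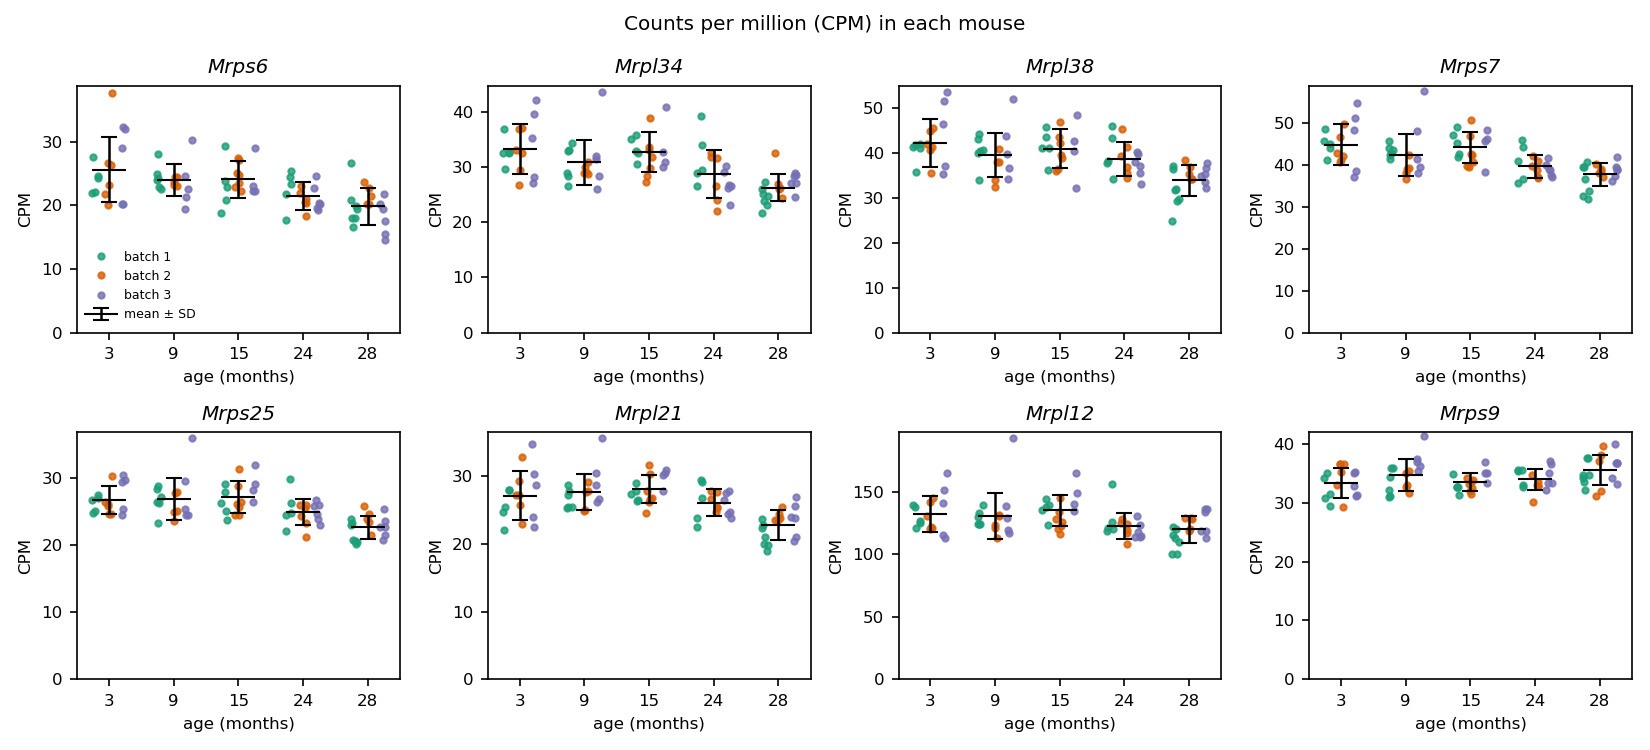
CPM (vertical axes, from 0) of 8 members in each mouse by age in months (horizontal axes), with points colored by library batch and bars for the mean ± SD. Mrps6, Mrpl34, Mrpl38, Mrps7, Mrps25 and Mrpl21 end lowest at 28 months, Mrpl12 has the highest CPM of the 8, and Mrps9 ends at 35.6 CPM against 33.4 CPM at 3 months.

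The only member that was higher at 28 than at 3 months was Mrps9, a small subunit protein whose bacterial counterpart reaches the site of the peptidyl-tRNA. It ran from 29.4 over a median of 33.6 to 36.6 CPM at 3 months and from 31.1 over 35.7 to 40.0 CPM at 28 months. The ranges overlapped widely, and 13 of the 18 older mice were at or above the younger median. The rise was 0.09 on the log2 scale (SE 0.03, adjusted p = 0.0193), by 0.12, 0.04 and 0.13 in batches 1, 2 and 3. With batches 1 and 2 alone its adjusted p was 0.159, and with 2 and 3 alone 0.122. Mrpl23, at the rim of the exit tunnel, differed by 0.09 (SE 0.05) with an adjusted p of 0.117. At 28 against 15 months 2 of the 77 members were higher, Mrps9 and Mrpl23, against 20.2% of the genes tested, and 56 were lower, against 22.2%. Mrpl23 ran from 14.2 over a median of 16.4 to 19.2 CPM at 15 months and from 13.3 over 18.0 to 21.0 CPM at 28 months. It rose by 0.10 (SE 0.05, adjusted p = 0.0623), by 0.06 and 0.23 in batches 1 and 2, and it was near 0 in batch 3. Mrps9 rose by 0.08 (SE 0.03, adjusted p = 0.0361).

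By class, the counts at 28 against 3 months were as follows, where 25.9% of all tested genes were lower and 23.5% higher. Of the 30 large subunit members with a bacterial counterpart 19 were lower and none was higher, with a median fold change of -0.14. Of the 20 large subunit members particular to mitochondria 13 were lower, with a median of -0.12. Of the 16 small subunit members with a bacterial counterpart 10 were lower and Mrps9 was higher, with a median of -0.14. Of the 10 small subunit members particular to mitochondria 7 were lower, with a median of -0.16. Differences between classes were not tested. Mrps36, the member that is no ribosomal subunit, was also lower, by 0.24 (SE 0.05, adjusted p = 1.02e-05).

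**Figure D4:**
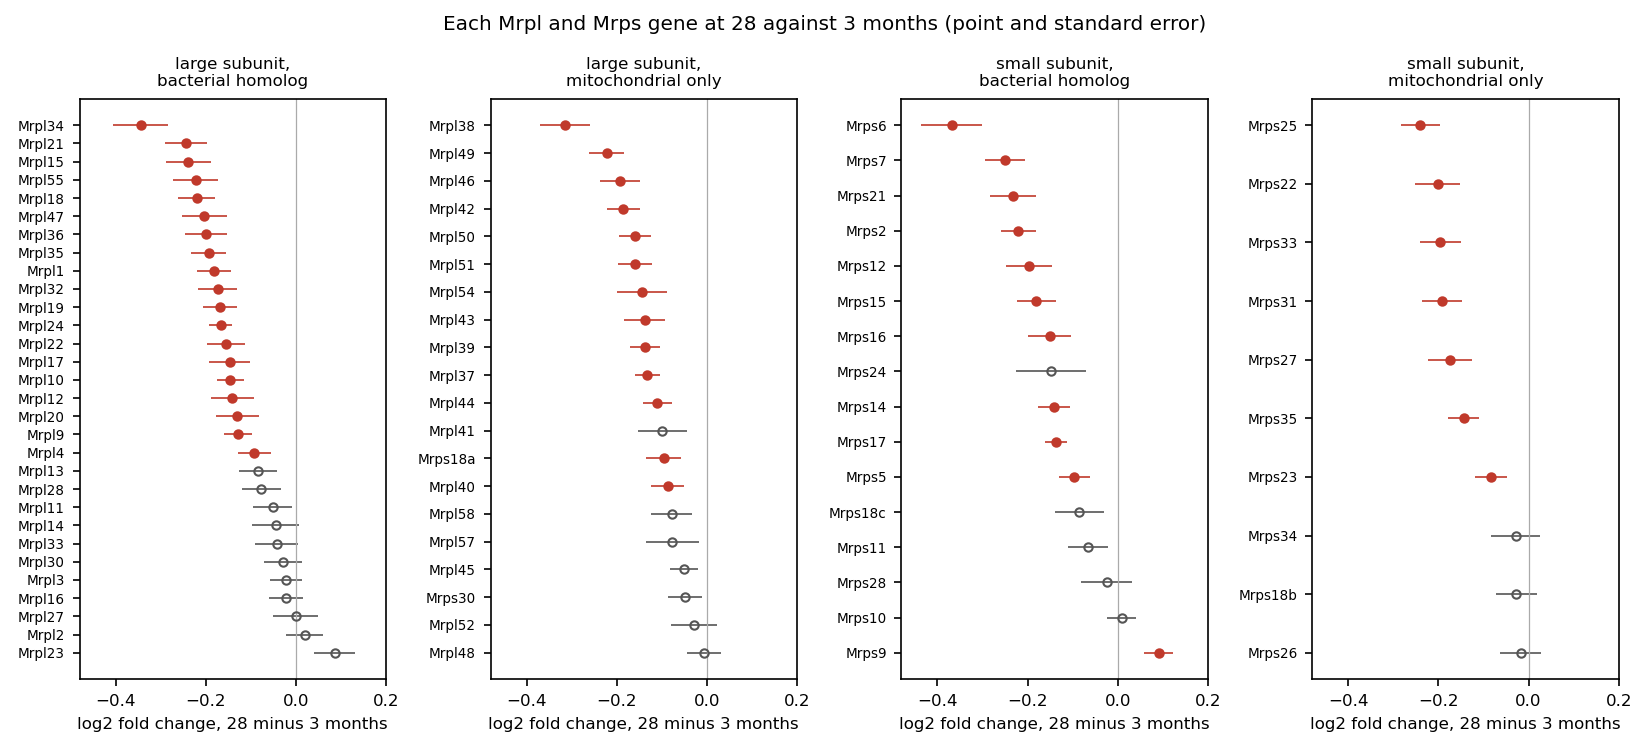
Log2 fold change at 28 minus 3 months (horizontal axes) with its standard error for 76 members in the 4 classes of subunit proteins, sorted by size, without Mrps36. Filled red points passed an adjusted p of 0.1. Each class spans from clear falls to values near 0, and Mrps9 is the only filled point above 0.

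Estimates for proteins of the same part of the ribosome were not all alike, and differences between members were not tested. In the stalk, Mrpl12 ran from 113 over 128 to 165 CPM at 3 months and from 100.0 over 119 to 137 CPM at 28 months, with a fall of 0.14 (SE 0.05, adjusted p = 0.013). Mrpl10, which anchors the stalk, fell by 0.15 (SE 0.03, adjusted p = 5.22e-05). Mrpl11, at the stalk's base, differed by -0.05 (SE 0.04) and was not called (adjusted p = 0.345).

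Near the peptidyl transferase center, neither Mrpl2 (log2 fold change 0.02, SE 0.04) nor Mrpl3 (-0.02, SE 0.04) was called at 28 against 3 months. With the 4 marker scores Mrpl3 turned to 0.09 (SE 0.04, adjusted p = 0.0758). It had been lower between 24 and 15 months, by 0.10 (SE 0.04, adjusted p = 0.091). Mrpl2 ran from 32.7 over 37.6 to 40.2 CPM at 3 months and from 28.3 over 37.9 to 43.9 CPM at 28 months, so that the medians were close. At the exit of the peptide tunnel, Mrpl22 fell by 0.15 (SE 0.04) and Mrpl24 by 0.17 (SE 0.03). Mrpl24 had the smallest adjusted p of the members named (2.4e-07), and it ran from 75.5 over 83.6 to 93.8 CPM at 3 months and from 69.0 over 75.6 to 79.8 CPM at 28 months. All 18 older mice were under its younger median. Mrpl44, which has the fold of a double-strand RNA nuclease, fell by 0.11 (SE 0.03). Mrpl45, which binds the inner membrane at the tunnel exit, had -0.05 (SE 0.03, adjusted p = 0.193).

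In the small subunit, Mrps12, a protein of the decoding center, fell by 0.20 (SE 0.05, adjusted p = 0.00109), from a median of 25.9 CPM at 3 months to 23.2 CPM at 28 months. Mrps16 fell by 0.15 (SE 0.05) and Mrps5, near the entry of the messenger, by 0.10 (SE 0.03). Mrps34, which like Mrps22 and Mrps16 is known from human respiratory chain deficiency, differed by -0.03 (SE 0.06, adjusted p = 0.703), with medians of 40.9 CPM at 3 months and 42.5 CPM at 28 months. Among the 3 paralogs that share the number 18 in their symbol, Mrps18a was lower by 0.10 (SE 0.04, adjusted p = 0.0381), a value that turned to 0.02 (SE 0.04, adjusted p = 0.729) with the 4 marker scores in the model, whereas Mrps18c (-0.09, SE 0.05) and Mrps18b (-0.03, SE 0.05) were not called. Mrps30 (-0.05, SE 0.04) and Mrpl58 (-0.08, SE 0.05) were not called either.

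Over all ages 50 of the 77 members differed (64.9%), against 54.9% of all tested genes, by the test over all 5 ages at once. With the 4 marker scores in the model it was 30 members, against 46.4% of all tested genes. At 1 or more of the pairs of ages 63 of the 77 members were called, and 12703 of the 18325 genes tested. A course over age other than a straight line was called for 8 members (10.4%), against 16.2% of all tested genes. This count moved with the fit: it was 20 with the 4 marker scores, against 21.0% of all tested genes, 24 with epithelial and smooth muscle scores, against 25.1%, and 0 with batches 2 and 3 alone, against 3.09%. The 8 were Mrpl21, Mrps25, Mrps14, Mrps21, Mrpl38, Mrpl36, Mrps15 and Mrpl24. Mrpl21 had the smallest adjusted p (0.00314), with medians of 27.3, 27.5, 27.8, 26.5 and 23.6 CPM from 3 to 28 months. Those of Mrps21, a small subunit protein with a bacterial counterpart, were 37.1, 37.0, 37.6, 33.6 and 31.4 CPM (adjusted p = 0.0547). Both were level to 15 months and lower later.

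Marker genes of other cells moved at the same ages. At 28 against 3 months 5 of 6 markers of cycling cells were lower, and their summed level ran from 339 to 798 CPM at 3 months and from 398 to 603 CPM at 28 months. Macrophage markers were higher in 5 of 6 cases, with sums of 132 to 205 and 126 to 306 CPM, and endothelial markers in 4 of 5, with sums of 97.8 to 119 and 107 to 157 CPM. Of the 8 epithelial markers 2 were lower, and of the 8 smooth muscle markers 0 were called, with sums of 907 to 5480 CPM at 3 months and 2700 to 5000 CPM at 28 months. Of 6 markers of B and plasma cells 3 were lower, with a median of -0.26 and sums of 852 to 1560 and 555 to 1690 CPM. At 24 against 15 months 4 of 6 macrophage and 4 of 5 endothelial markers were higher and 0 of 6 cycling markers were called. At 28 against 24 months 4 of 6 markers of B and plasma cells (median -0.62), 3 of 6 of cycling cells (median -0.17) and 2 of 6 of fibroblasts (median -0.17) were lower, and none of these lists held a marker that was higher. Their sums ran from 709 to 2330, from 466 to 643 and from 642 to 1310 CPM at 24 months and from 555 to 1690, from 398 to 603 and from 629 to 1260 CPM at 28 months. The part of B and plasma cells and fibroblasts in the members' differences was not tested. No marker of these lists was at 0 in every mouse.

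With mean marker levels of epithelium, cycling cells, macrophages and endothelium in the model, 26 of the 77 members (33.8%) were lower at 28 against 3 months, against 25.5% of all tested genes in the same fit, and 8 were higher, against 20.3%. The share of members that were lower was thus much closer to that of all genes than without these scores, and the median fold change was -0.05, against -0.02 over all tested genes. At 24 against 15 months 1 member was then lower, against 3.11% of all tested genes, and the median was -0.01, as over all tested genes, so that the members no longer stood above the rest. At 28 against 24 months 22 were then lower, against 8.67%, and 1 was higher, against 8.32%. With only epithelial and smooth muscle scores 23 members were lower at 24 against 15 months, against 7.07% of all tested genes, and 46 at 28 against 3 months, against 25.3%. The members' differences at both comparisons were smaller with the 4 scores in the model. At 28 against 3 months Mrpl12 was then left at -0.01 (adjusted p = 0.937), while Mrpl34, Mrpl38, Mrps6 and Mrps25 kept their calls. Members also have shorter exons than other genes, with a median of 2533 against 3807 bp. An offset that removes the length trend of each mouse left 25 members lower at 24 against 15 months, against 8.44% of all tested genes, and 53 at 28 against 3 months, against 26.9%. Among the tested genes of the longest of 4 length classes, 6 of 12 members were lower at 28 against 3 months, against 24.3% of those genes, and in the shortest 25 of 37, against 22.9%.

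Genes that act with the mitochondrial ribosome were counted in the same comparison, 28 against 3 months, in which 25.9% of all tested genes were lower and 23.5% higher. Of 5 ribosomal subunits with other symbols 4 were lower, among them Gadd45gip1 (-0.22, SE 0.06) and Ptcd3 (-0.18, SE 0.04). Of 25 assembly factors 13 were lower and 2 higher, with a median of -0.09. Mrm3, a methyltransferase of the ribosomal RNA, fell by 0.29 (SE 0.06) and Noa1, an assembly GTPase, by 0.27 (SE 0.05), while Rbfa, a maturation factor of the small subunit, rose by 0.14 (SE 0.05) and Nsun4 by 0.11 (SE 0.04).

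Of 15 translation factors 10 were lower and 2 higher, with a median of -0.13. Mtrf1l, a release factor, fell by 0.37 (SE 0.07), and Tufm, the elongation factor that brings aminoacyl-tRNA, fell by 0.27 (SE 0.05) from a mean of 146 ± 15.4 CPM (SD, n = 16) to 121 ± 13.3 CPM (n = 18). Oxa1l, which inserts new proteins into the inner membrane, rose by 0.15 (SE 0.04) and Guf1 by 0.10 (SE 0.04). Of 17 mitochondrial aminoacyl-tRNA synthetases 9 were lower and 1 higher, with a median of -0.14. Yars2 fell by 0.32 (SE 0.05) and Cars2 by 0.25 (SE 0.04). Iars2 went the other way and rose by 0.24 (SE 0.03), from 108 ± 6.16 to 127 ± 10.1 CPM.

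Of 11 genes of mitochondrial DNA replication and transcription 3 were lower and 2 higher, shares near those of all tested genes. Polg, the catalytic subunit of the mitochondrial DNA polymerase, fell by 0.21 (SE 0.03) and Tefm, a transcription elongation factor, by 0.18 (SE 0.06), while Mterf2 rose by 0.27 (SE 0.07) and Polg2 by 0.21 (SE 0.06). Of 11 regulators of mitochondrial biogenesis 3 were lower, Pprc1 (-0.32, SE 0.08), Esrra (-0.15, SE 0.04) and Gabpb1 (-0.11, SE 0.03, adjusted p = 0.00243), and none was higher. The share that was lower was again near the 25.9% of all tested genes. Of the factors known to bind the motifs counted above, Gabpb1 is the partner subunit of Gabpa in the ETS family factor GABP. Nrf1 (-0.04, SE 0.04), Gabpa (0.05, SE 0.04) and Yy1 (-0.03, SE 0.03) were not called.

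Of the 13 messengers of the mitochondrial genome, which these ribosomes translate, 4 were higher, against 23.5% of the genes tested, and 1 was lower. A difference between them and the nuclear genes was not tested. Of the 6 with the highest counts, mt-Nd1 rose by 0.21 (SE 0.04), from 4720 ± 234 to 5470 ± 437 CPM, mt-Co1 by 0.15 (SE 0.05), from 18900 ± 1660 to 21000 ± 2610 CPM, and mt-Nd5 by 0.15 (SE 0.06). mt-Nd2 fell by 0.12 (SE 0.04), and mt-Nd4 (-0.01, SE 0.04) and mt-Cytb (-0.04, SE 0.04) were not called. The other 7 were counted far lower, with means at 3 months from 0.962 CPM for mt-Nd3 to 53.1 CPM for mt-Nd6. Of these mt-Co2 alone was called, with a rise of 0.38 (SE 0.15) from 43.6 ± 9.42 CPM. Their standard errors ran from 0.15 for mt-Co2 to 0.30 for mt-Nd4l. These values are uncertain, since only uniquely mapped reads were counted and nuclear copies of mitochondrial sequence can share reads with them.

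**Figure D5:**
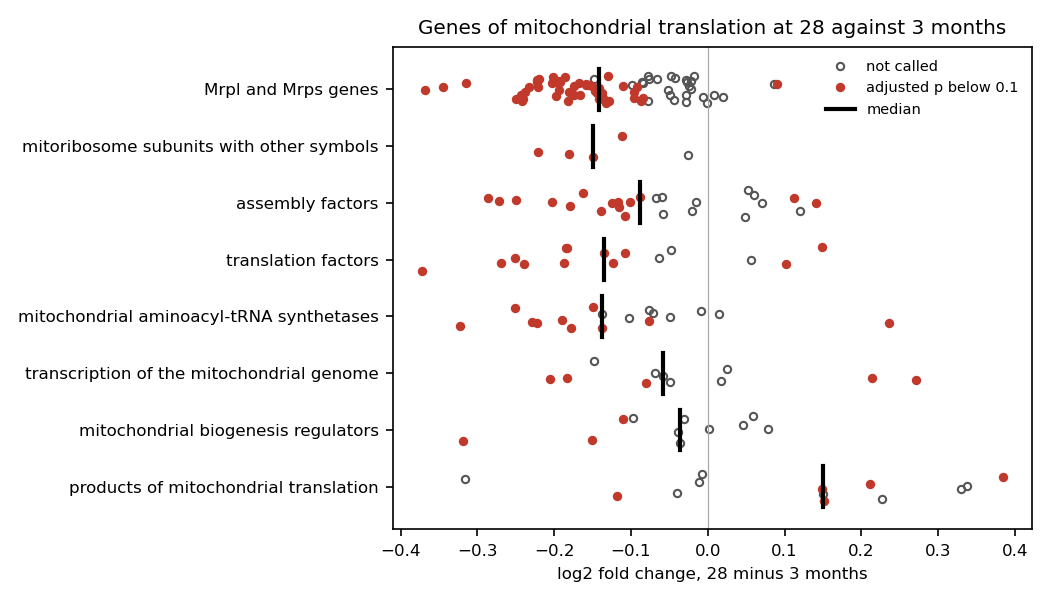
Log2 fold change at 28 minus 3 months (horizontal axis) of the 77 members and of 7 lists of genes of mitochondrial translation (vertical axis, 1 point per gene). Filled red points passed an adjusted p of 0.1 and black lines mark medians, which are below 0 for all lists but the 13 messengers of the mitochondrial genome, where the median is the uncalled value of mt-Co3 (0.15).

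Of the 33 members with an opposite gene start nearby, 29 had a tested partner that is no member. Among these partners 14 were lower and 3 higher at 28 against 3 months, with a median of -0.08. Over all tested genes 25.9% were lower and 23.5% higher, with a median of -0.01. Mrps7 and its partner Gga3, with 126 bp between the starts, both fell (-0.25 and -0.21), whereas Fau, 59 bp from Mrpl49, was higher (0.12, adjusted p = 0.0492) and Mrpl49 lower (-0.22).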

How the data were processed

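RNA of the proximal colon was sequenced from poly(A)-selected, stranded libraries. The authors trimmed the reads with cutadapt 2.8, aligned them with HISAT2 2.1.0 to GRCm38.p6, kept unique alignments with SAMtools 1.9 and assigned read pairs to genes by strand with featureCounts of Subread 2.0.1. The values the authors deposited are raw counts per gene and mouse, without normalization or pooling. Gene types, positions and merged exon lengths came from an annotation of GRCm38 that holds 37652 of the 37764 genes. CPM were scaled by TMM, and TPM used merged exon lengths. Within each age, every pair of mice differed by at least 9.97 times the counting variance per gene, so each mouse counted as 1 replicate.

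Ages came from the sample labels. edgeR 4.0.16 in R 4.3.3 filtered genes by age group, normalized by TMM and fitted 1 quasi-likelihood model with age and library batch over all 83 mice. Within a comparison the Benjamini-Hochberg adjustment was used and genes under 0.1 were called, the threshold of the study's methods; a standard error is the absolute log2 fold change over the square root of F. The study's tool, DESeq2 (here 1.42.0), was an alternative. Marker and pathway lists came from general knowledge, and the members and lists were chosen with earlier results of these data known. Members named are the 5 largest falls and rises of each main comparison with 1 direction in the 3 batches, the 3 highest and 3 lowest by TPM, the 5 smallest p for departure from a straight line and a list of known roles, and from each pathway list the 2 largest rises and falls; Gga3, Mrpl49 and Fau were picked after their values were seen. Promoter windows are from RefSeq. The report gives the range and median of the depth over the mice, and depth bears on counting error only. The effect of 13 planned and 2 added alternatives is given at the end.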

Additional observations from a re-analysis of the deposited data

How the results depend on the processing

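At 28 against 3 months between 34 and 55 members were called over 15 alternatives, against 51, and the median fold change ran from -0.14 to -0.05. At 15 against 9 months 0 were called under each. The low end of 34 came from adding scores of epithelium, cycling cells, macrophages and endothelium, with 26 lower and 8 higher in place of 50 and 1, an alternative chosen after seeing the data, as was leaving out mouse 10 of the 9-month group. With these 4 scores the counts were 1 at 24 against 15 months, 23 at 28 against 24 months, 30 for any age and 20 for departure from a straight line (5.53%, 17.0%, 46.4% and 21.0% of all tested genes), and Mrpl3 (0.0856) and Mrps18a (0.0196) changed sign at 28 against 3 months. With epithelial and smooth muscle scores they were 0 at 9 against 3 months, 16 at 28 against 24 months and 24 for departure (10.2%, 15.1% and 25.1% of all tested genes).

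At 24 against 15 months (26 called) the count was 12 with total counts in place of TMM, 11 with no filter on low counts, 15 at an adjusted p below 0.05, and 3, 0 and 13 with only batches 1 and 2, 1 and 3, and 2 and 3. At 28 against 24 months (8 called) it was 5 with size factors of DESeq2, total counts, at least 10 counts in every mouse, batches 1 and 3, DESeq2 or an adjusted p below 0.05, 4 with no filter and 0 with batches 2 and 3. For departure from a straight line (8 called) it was 4 with size factors of DESeq2, total counts or DESeq2, 3 with no filter or an adjusted p below 0.05, 5 with no batch term, batches 1 and 2 or batches 1 and 3, and 0 with batches 2 and 3. At 9 against 3 months (1 called) it was 0 with no filter, batches 1 and 3, batches 2 and 3 or an adjusted p below 0.05, and 2 with the length offset or without the mouse left out. Fewer mice enter a fit on some batches, and no filter raises the number of tests from 18325 to 37764 genes. The cause of the other changes was not tested. These counts are not set against the share of all tested genes in the same fits. They do not show whether a change is particular to the members.

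Ages share replicate numbers, but these name different mice: the median correlation of same-numbered mice was 0.0103, and 3 of 83 mice correlated best with a mouse of their own number. With the replicate block the counts were 1 at 9 against 3 months, 0 at 15 against 9, 22 at 24 against 15, 6 at 28 against 24 and 51 at 28 against 3 months, 50 for any age and 4 for departure. The shares of all tested genes in this fit are not given beside them. Of 570 values of 38 named members at 28 against 3 months under the alternatives, 538 kept their direction and side of the threshold, 20 lost the call, 10 gained it and 2 reversed. At these depths every member had at least 233 counts in each mouse. How much counting error adds to the spread of a member was not tested.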
